A study of Drosophila melanogaster with 4 samples.

Results

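Genes of fatty acid desaturation, membrane lipid synthesis and lipid breakdown were followed in adult male fruit flies after a cold shock. Each gene was taken by its name: desaturases, elongases, fatty acid synthesis and its regulators, phospholipid synthesis, fat storage, lipases and fatty acid oxidation, with every gene named Lip and a digit. The names were chosen with earlier results of these data known, so counts and unadjusted p-values within the set are a description only. Of 39 genes written down, 25 had spots on the 12k array design that carried their symbol alone, out of 6793 named genes on that design. Among them 23 were matched by symbol and 2, Lsd-1 and Lsd-2, by the synonyms plin1 and plin2. The other 14 were not analysed on this design: Fad2, CG15531, Baldspot, eloF, FASN2, ACC, SCAP, Pcyt1, eas, Cds, sws, Hsl, Mtpalpha and Mcad.

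Whole males aged 6 to 7 days were used, all of the strain dp cn bw cl. The cold-shocked group spent 2 h at 0 ± 0.5 °C with a recovery of 30 min at 25 °C, and co-reared controls remained at 25 °C. Each of 3 cDNA arrays compared 1 independent pair of cold-shocked (Cy5) and untreated (Cy3) RNA, and 1 pilot array of the smaller 7k design carried the dyes the other way round. All values are log ratios of the 2 channels as deposited, taken here as log2, and a positive 12k value likely means more RNA after cold shock. Ratios give no level, so neither the tissue nor the expression of a gene could be checked from them. With 1 dye orientation on the 12k arrays, dye and treatment cannot be told apart.

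In insects as in other animals, desaturases put double bonds into fatty acids, and membranes with more unsaturated chains stay fluid at lower temperature. Fatty acids are built by fatty acid synthase, lengthened by elongases, and joined to head groups such as choline, ethanolamine, serine and inositol to make phospholipids. Surplus fatty acids are stored as triglyceride in droplets of the fat body, coated by perilipins, and are released by lipases and burnt in mitochondria.

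None of the 25 lipid genes passed the test. The lowest mean ratios were those of the desaturase gene CG9747 and the lipase genes CG5966 and Lip2, and the highest were those of the phosphatidylserine synthase gene Pss and the regulator gene SREBP. The median of the 25 mean log2 ratios was −0.024, beside −0.048 over the 6793 named genes and −0.038 over all 19325 features, which are the named genes and the unnamed spots. By limma, with p adjusted over all features, 0 of the 25 genes passed the threshold of 0.05, and the share of all features that passed was 0%. At an unadjusted p of 0.05 the count was 1, CG9747, on the low side, which is 4% of 25 genes. Under that limit were 4.78% of all features (3.3% lower and 1.49% higher) and 3.49% of named genes (2.58% lower and 0.913% higher). That split over all features was 637 lower and 287 higher. It became 620 and 491 with 101-spot local medians subtracted, 457 and 371 with 11-spot medians, and 629 and 397 with arrays centred on their medians. It was 512 and 505 without array 1, 1004 and 204 without array 2, and 443 and 154 without array 3. With every spot its own feature it was 963 and 360. A gene that did not pass is not shown to be unchanged. In bulk RNA, fewer cells of a type and less RNA per cell cannot be told apart.

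**Figure D1:**
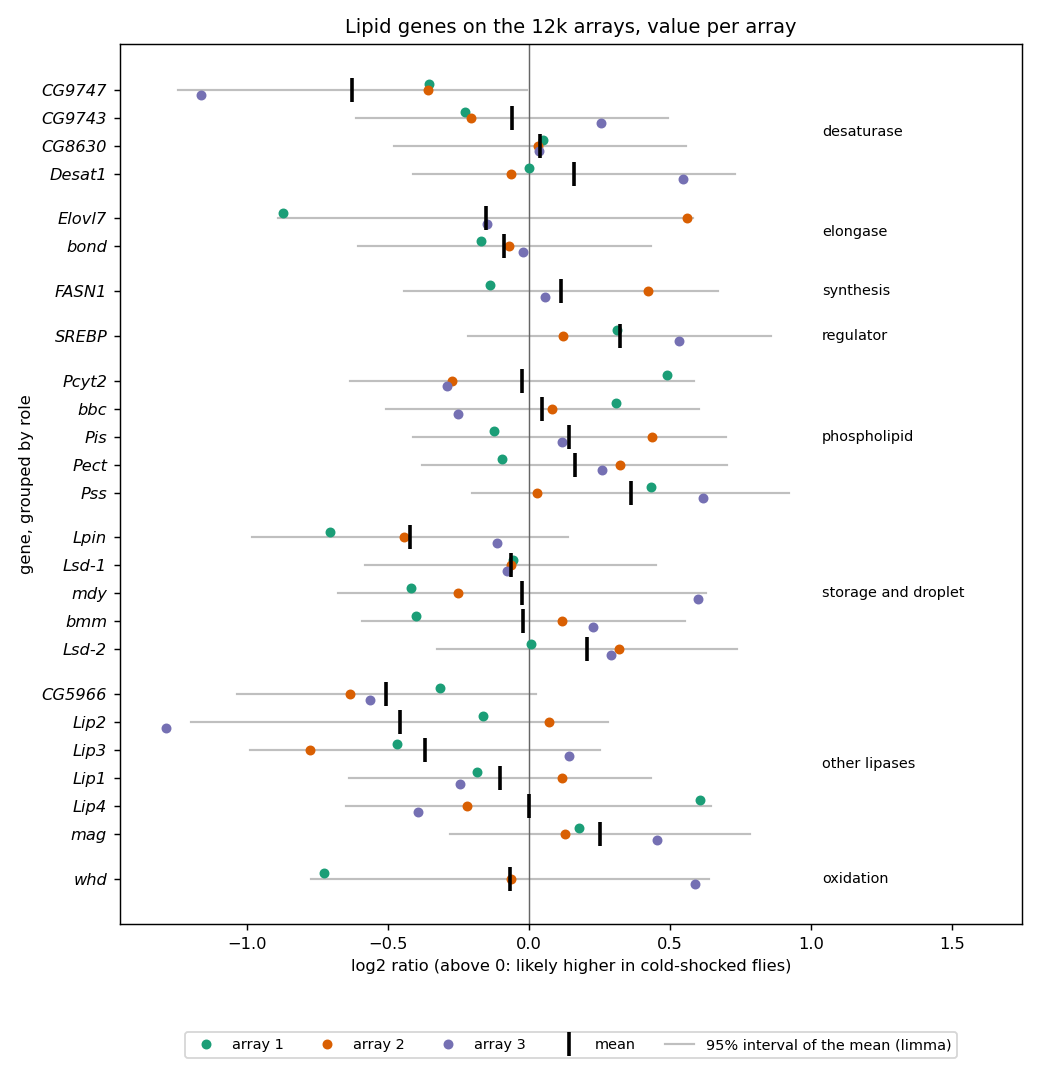
The log2 ratio of each of the 25 lipid genes on 12k arrays 1 to 3 (coloured points, shifted up or down by array so that none is hidden), with the mean (black bar) and limma's unadjusted 95% interval of the mean (grey line), grouped by role. CG9747 is the lowest mean at −0.63 and Pss the highest at 0.36, and the interval of 1 gene, CG9747, leaves out 0.

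For 22 of the 25 genes, limma's unadjusted 95% interval of the mean lay inside a 2-fold change in either direction. The exceptions were CG9747, CG5966 and Lip2, whose intervals reached log2 ratios of −1.24, −1.04 and −1.20. The median interval reached 0.557 on either side of the mean on the log2 scale. These intervals rest on 3 arrays and a spread shared over all features. The share of all features inside that limit is not given, so the 22 genes are not shown to differ from other features.

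Among the 4 measured desaturase genes, 1 was below 0 on all 3 arrays and 1 above, where 15.1% of all features were below and 12.6% above. CG9747, which encodes a fatty acid desaturase, had log2 ratios of −0.36, −0.36 and −1.16 on arrays 1 to 3. Every value was negative and array 3 was the farthest from 0. The mean was −0.63 ± 0.47 (SD, n = 3), or 1.54-fold lower after cold shock (95% interval of the log2 ratio −1.24 to −0.0071, limma adjusted p 0.853). Without array 3 the mean was −0.36. All 6 single spot values were below 0.

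Desat1, the best known desaturase of the fly, which makes monounsaturated fatty acids for lipids and pheromones, lay close to 0 on arrays 1 and 2 and above it on array 3. Its log2 ratios were −0.0010, −0.064 and 0.55, with a mean of 0.16 ± 0.34 (SD, n = 3). The gene was printed as 3 pairs of spots at distant places, and on array 3 these pairs read −0.064, 0.62 and 1.08. The high value on array 3 thus came from 2 of its 3 pairs. Without array 3 the mean was −0.032.

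Both other desaturase family genes had means near 0. CG9743 stood at −0.23, −0.21 and 0.26 on the arrays, with a mean of −0.058 ± 0.27 (SD, n = 3). CG8630 gave 0.052, 0.032 and 0.035, the smallest SD over arrays among the 25 genes, at 0.011. One of its 2 spots was above 0 and the other below on every array, at 0.61 and −0.54 on array 3, so their average was closer to 0 than either.

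Elongases, which lengthen fatty acids, were measured with 2 genes of 4. bond, an elongase gene for very long chains, was slightly below 0 on each array, at −0.17, −0.070 and −0.021, with a mean of −0.086 ± 0.075 (SD, n = 3). Elovl7 had log2 ratios of −0.87, 0.56 and −0.15. Its arrays disagreed in sign, and the mean of −0.15 became 0.076 once the median of 101 neighbouring spots was subtracted.

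Fatty acid synthesis was represented by FASN1, the main fatty acid synthase gene. It had log2 ratios of −0.14, 0.42 and 0.058, and a mean of 0.11 ± 0.29 (SD, n = 3). SREBP encodes the membrane-bound transcription factor that, once released, turns on genes of fatty acid synthesis. It was above 0 on all 3 arrays, at 0.31, 0.12 and 0.53, with a mean of 0.32 ± 0.21 (SD, n = 3), or 1.25-fold higher (95% interval −0.22 to 0.86, limma adjusted p 0.862). Of its 6 single spot values 1 was below 0, on array 2.

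Phospholipid synthesis genes had means above 0 in 4 of 5 measured members, out of 9 written, and 1 below, where 54.8% of all features and 57% of named genes had a mean below 0. Of the 5, 1 was above 0 on all arrays, beside 12.6% of features. Pss, which makes phosphatidylserine, had log2 ratios of 0.43, 0.029 and 0.62. Arrays 1 and 3 were high and array 2 was near 0. The mean was 0.36 ± 0.30 (SD, n = 3), or 1.28-fold higher (95% interval −0.20 to 0.92, limma adjusted p 0.859).

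Pect and Pis had small positive means with a negative value on array 1. Pect, an enzyme of the ethanolamine branch, stood at −0.097, 0.32 and 0.26, with a mean of 0.16 ± 0.23 (SD, n = 3). Pis, which makes phosphatidylinositol, stood at −0.12, 0.44 and 0.12, with a mean of 0.14 ± 0.28 (SD, n = 3). Its 2 spots differed by 0.0191 on average, the closest match among the 25 genes, while its arrays differed in sign.

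Pcyt2 and bbc were both above 0 on array 1 and below it on array 3. Pcyt2, whose enzyme activates phosphocholine, had log2 ratios of 0.49, −0.27 and −0.29 and a mean of −0.024 ± 0.45 (SD, n = 3). bbc, a choline and ethanolamine phosphotransferase gene, had 0.31, 0.082 and −0.25 and a mean of 0.048 ± 0.28 (SD, n = 3).

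Of 5 measured storage and droplet genes, 2 were below 0 on all arrays and 1 above. Among all features 15.1% were below and 12.6% above. Lpin, the phosphatidate phosphatase that feeds both triglyceride and phospholipid synthesis, had log2 ratios of −0.70, −0.44 and −0.11. All 6 of its spot values were below 0. The mean was −0.42 ± 0.30 (SD, n = 3), or 1.34-fold lower (95% interval −0.98 to 0.14, limma adjusted p 0.853), and with 101-spot local medians subtracted it was −0.14. After that subtraction array 1 was above 0, at 0.070, and arrays 2 and 3 read −0.43 and −0.055.

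The perilipin genes, whose proteins coat lipid droplets, differed in sign. Lsd-2 was at 0.0082, 0.32 and 0.29, with a mean of 0.21 ± 0.17 (SD, n = 3). Lsd-1 was at −0.054, −0.062 and −0.077, with a mean of −0.065 ± 0.012 (SD, n = 3). Behind that narrow spread were 8 spots, which spanned up to 1.83 in log2 on 1 array, and 15 of their 24 values were below 0.

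Triglyceride is finished by mdy, a diacylglycerol acyltransferase gene, and opened by bmm, the Brummer lipase gene. mdy had log2 ratios of −0.42, −0.25 and 0.60 and a mean of −0.024 ± 0.55 (SD, n = 3). Of its 2 printed pairs one read 1.33 on array 3 and the other −0.13. bmm had −0.40, 0.12 and 0.23, with a mean of −0.019 ± 0.33 (SD, n = 3). Both genes ran across 0.

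**Figure D2:**
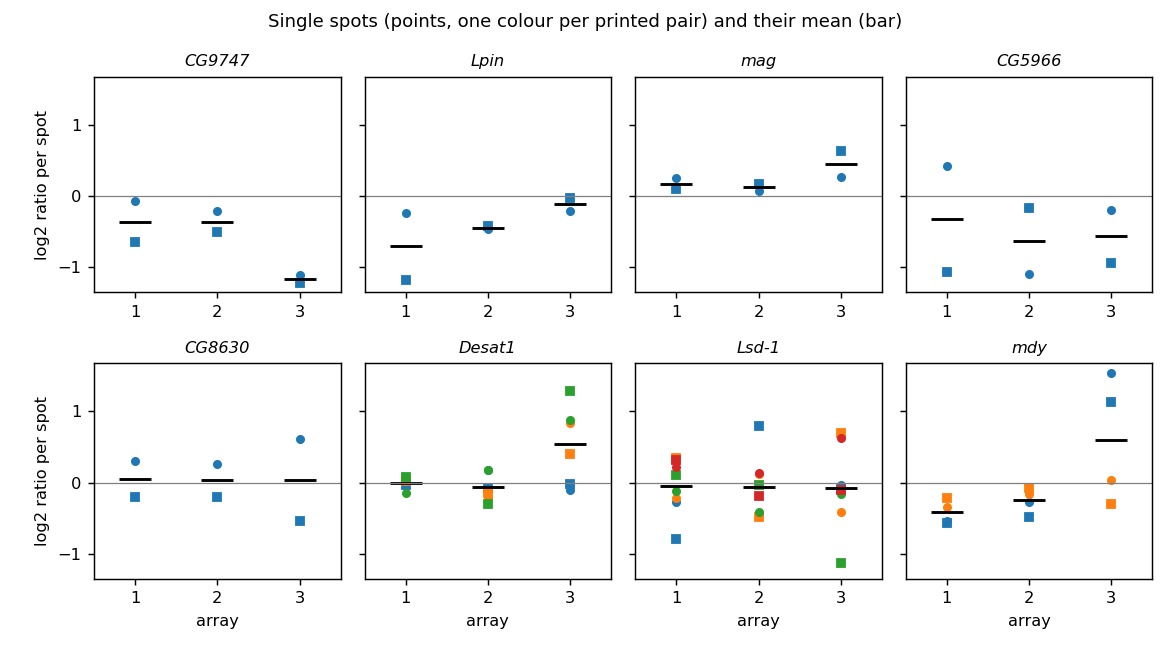
Single-spot log2 ratios (vertical axis) on 12k arrays 1 to 3 (horizontal axis) for 8 of the 25 genes, with a colour per printed pair, a circle for its first and a square for its second spot, and the mean of all spots as a black bar. CG9747 and Lpin have all spots below 0 and mag all above, whereas the spots of CG8630 and Lsd-1 straddle 0 on every array.

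The remaining lipases had means below 0 in 5 of 6 measured members, beside 57% of the named genes and 54.8% of all features. CG5966, a gene listed among the lipases and known by its annotation number, had log2 ratios of −0.31, −0.63 and −0.56. All arrays were below 0, with a mean of −0.50 ± 0.17 (SD, n = 3), or 1.42-fold lower (95% interval −1.04 to 0.026, limma adjusted p 0.853). Its 2 spots disagreed more than its arrays did: on array 1 they read 0.43 and −1.06, and 5 of 6 spot values were below 0. Subtraction of the median of 101 neighbouring spots left a mean of −0.43, and that of 11 spots left −0.095. After the 101-spot subtraction array 1 was above 0, at 0.17, and arrays 2 and 3 read −0.68 and −0.79.

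Lip2, Lip3, Lip1 and Lip4, which are named as lipases, each had mixed signs. Lip2 was at −0.16, 0.073 and −1.29, and its mean of −0.46 ± 0.73 (SD, n = 3) became −0.045 without array 3. Lip3 was at −0.47, −0.78 and 0.14, with a mean of −0.37 ± 0.47 (SD, n = 3). Lip1 and Lip4 had means of −0.10 ± 0.19 (SD, n = 3) and −0.00097 ± 0.53 (SD, n = 3).

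The single one of these 6 above 0 on all arrays was mag, which encodes a gut lipase that digests dietary triglyceride and cholesterol esters. It had log2 ratios of 0.18, 0.13 and 0.45, with a mean of 0.25 ± 0.18 (SD, n = 3), or 1.19-fold higher (95% interval −0.28 to 0.78, limma adjusted p 0.870). All 6 of its spot values were above 0.

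Fatty acid oxidation was represented by whd, the carnitine palmitoyltransferase gene that lets fatty acids into mitochondria. Its log2 ratios of −0.73, −0.063 and 0.59 ran across 0, with a mean of −0.067 ± 0.66 (SD, n = 3). No direction could be given for it.

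By sign, 10 of the 25 genes stayed on one side of 0 on all 3 arrays, or 40%, where 29.4% of named genes and 27.8% of features did. Below 0 were 5 genes (CG9747, bond, Lpin, Lsd-1 and CG5966), beside 16.9% of named genes and 15.1% of features. Above 0 were 5 genes (CG8630, SREBP, Pss, Lsd-2 and mag), beside 12.5% of named genes and 12.6% of features. When every spot had to keep one sign, 3 genes were left, or 12%, beside 8.01% of the named genes. They were CG9747 and Lpin below 0 (4.37% of named genes) and mag above it (3.64%).

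Past a 1.5-fold change in one direction on all arrays there were 0 of the 25 genes, beside 0.221% of named genes and 0.445% of features. In the mean, 1 gene (CG9747) was past 1.5-fold lower, where 5.01% of named genes and 6.47% of features were. None was past 1.5-fold higher, where 1.41% of named genes and 2.3% of features were.

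Array 1 stood lower than the others, with a median over all spots of −0.13 beside 0.032 and 0.031 on arrays 2 and 3. Of the 25 genes 17 were below 0 on array 1, 12 on array 2 and 11 on array 3. Their medians on arrays 1 to 3 were −0.14, 0.029 and 0.058, beside −0.12, 0.016 and 0.015 over all named genes. The share of all features below 0 on each array is not given, so these counts are not shown to differ from other features. Across the 25 genes, which share arrays and dye orientation, Pearson's r came to 0.0889 for arrays 1 and 2, 0.0456 for 1 and 3 and 0.21 for 2 and 3. Across all named genes the same array pairs gave 0.0878, 0.0983 and 0.0782.

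Markers of other tissues were read beside these values. Of 9 fat body markers written, 4 were measured, Lsp2, Fbp1, Fbp2 and apolpp, with means from −0.098 to 0.34 and mixed signs in each. Of 4 genes written as oenocyte markers, only Cyp4g15 and svp were measured, with means of −0.47 and −0.13, and Cyp4g1 was not. Whether Cyp4g15 and svp mark oenocytes was not checked, so their values are not read as those of that cell type. The 9 measured midgut markers had means from −0.81 to 0.17. Female markers, in flies labelled male, were below 0 on all arrays for 5 of 9 measured genes, beside 15.1% of all features. The yolk protein gene Yp1 stood at −4.22, −2.32 and −1.40 and dhd at −2.60, −2.78 and −1.75 on arrays 1 to 3. The other 4, yl, otu, swa and fs(1)N, had mixed signs, with means of −0.22, −0.18, 0.16 and 0.25. The 2 measured male accessory gland markers, Acp36DE and Acp53Ea, had means of −0.045 and 0.17. The part of these markers in the lipid gene values was not tested.

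**Figure D3:**
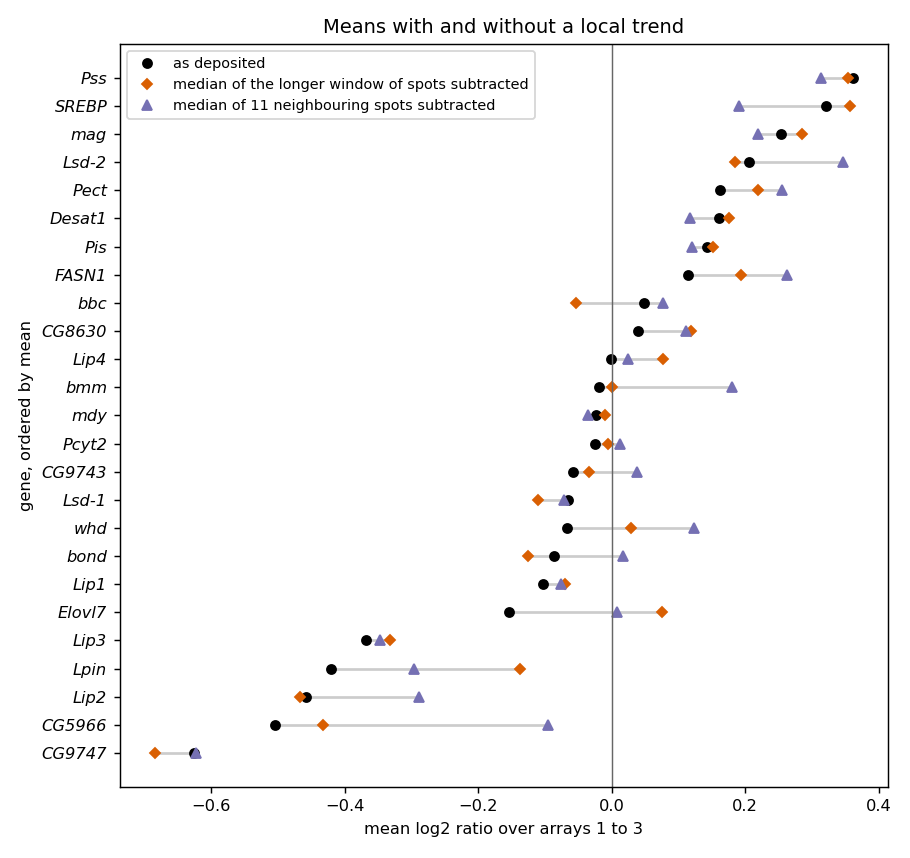
Mean log2 ratio over 12k arrays 1 to 3 (horizontal axis) of each of the 25 genes (vertical axis, ordered by the mean), as deposited (black circles) and after subtraction of the median of 101 (orange diamonds) or 11 (purple triangles) neighbouring spots. CG9747 stays between −0.68 and −0.62, whereas CG5966 moves from −0.50 to −0.095 with the short window.

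The wider lipid network was read from 201 further genes, of which 116 were measured on the 12k design. Of these, 0 passed limma's test over all features, and 4 had an unadjusted p under 0.05, 2 higher and 2 lower, where 4.78% of all features and 3.49% of named genes did. Their median was −0.012. By role the medians ran from −0.21 for 4 droplet and triglyceride genes to 0.084 for 21 lipase genes.

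Elongase genes held the smallest unadjusted p on each side of 0. CG18609 had log2 ratios of 0.89, 0.53 and 1.53, with a mean of 0.99 ± 0.51 (SD, n = 3) and all 6 spot values above 0. CG17821 had −0.75, −0.83 and −0.55, with a mean of −0.71 ± 0.14 (SD, n = 3) and all 6 spot values below 0. The limma adjusted p was 0.853 for each, so neither passed. Of the 7 further elongase genes measured, 3 were below 0 on all arrays and 2 above, where 15.1% of all features were below and 12.6% above.

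Sphingolipid genes were led by CDase, the neutral ceramidase gene, at 3.54, 0.54 and 0.43. Its mean of 1.504 ± 1.76 (SD, n = 3, limma adjusted p 0.853) rested largely on a single spot on array 1, which read 6.02 while its printed partner read 1.0513. The lipid phosphate phosphatase gene wun was above 0 on all arrays, with a mean of 0.52 ± 0.24 (SD, n = 3). Neither passed the test.

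In fatty acid oxidation the smallest p belonged to CG4586, an acyl-CoA oxidase family gene, with a mean of −0.67 ± 0.54 (SD, n = 3), and CRAT, carnitine acetyltransferase, followed at −0.46 ± 0.63 (SD, n = 3). On array 3 the 2 spots of CG4586 read −2.65 and 0.12. In fatty acid synthesis, AcCoAS, which makes acetyl-CoA from acetate, and bgm, an acyl-CoA synthetase gene, stood at 0.64 ± 0.70 (SD, n = 3) and 0.55 ± 0.68 (SD, n = 3), with array 3 highest for both at 1.43 and 1.31.

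The lipase genes CG17191 and CG6431 stood at −0.61 and 0.39, the phospholipase C gene Plc21C and the phospholipid gene CG2201 at −0.63 and −0.37, and the acyltransferase genes CG1941 and Dgat2 at −0.35 and −0.34. For lipid transport the genes with the smallest p were GLaz at 0.25 and Npc2f at −0.33. Among regulators they were S2P, a protease that releases SREBP, at −0.28, and the transcription factor gene sug at 0.30. These 10 genes did not pass the test.

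**Figure D4:**
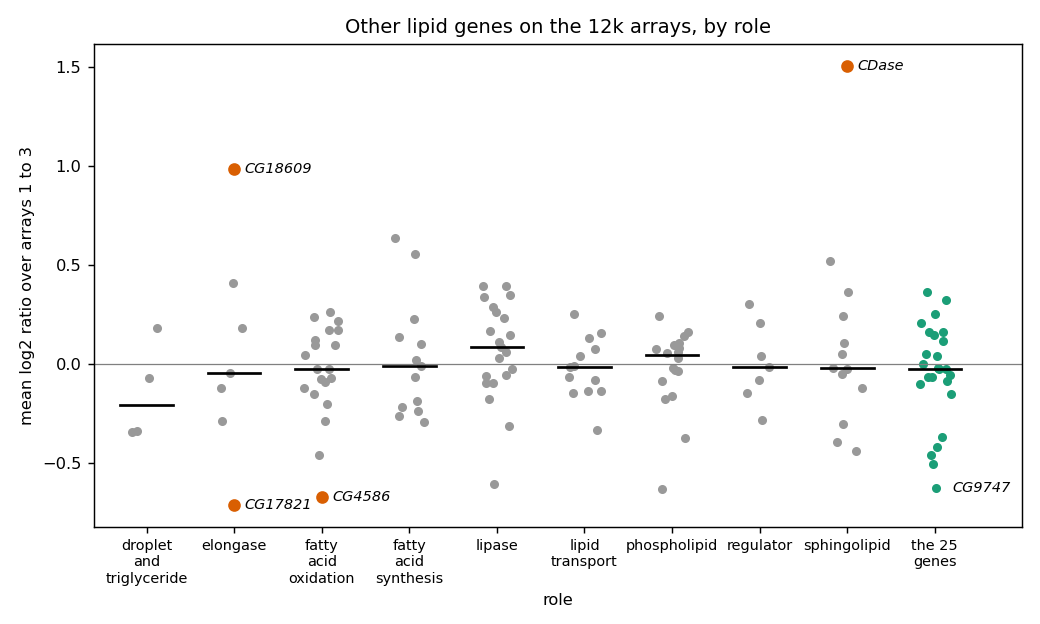
Mean log2 ratio over 12k arrays 1 to 3 (vertical axis) of 116 other lipid genes by role (grey points) and of the 25 genes (green points at the right), with the median of each group as a black bar. Orange points are the 4 other genes with an unadjusted p under 0.05, which are CG18609, CG17821, CG4586 and CDase.

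On the pilot array 11 of the 39 genes were spotted, 9 of which were also on the 12k design. The direction of its ratio is not settled, there was no replicate, and all values below would change sign if it ran the other way. Relative to the array's median of 0.40, 10 of the 11 were below and 1 was above, with a median of −0.44. Lpin, Pcyt1 and mag, counted as below, lay close to the array's median. Beside the 11 genes, 24 of 39 other lipid genes on the array were below, with a median of −0.24. How many of all named genes on the array were below is not given. The count of 10 is therefore not shown to be particular to the 11 genes. CG5966 stood at −1.57, at the 0.168 percentile of 2377 named genes on that array as deposited, or the 99.9 percentile with the sign turned, and its 2 spots read −1.58 and −1.56. Cds, which makes the activated diacylglycerol for phosphatidylinositol, stood at −0.77, CG9747 at −0.60, bmm at −0.57, bond at −0.52 and mdy at −0.44. The rest lay between −0.21 for bbc and 0.18 for Lsd-2, with Lpin at −0.010, Pcyt1 at −0.012 and mag at −0.086.

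**Figure D5:**
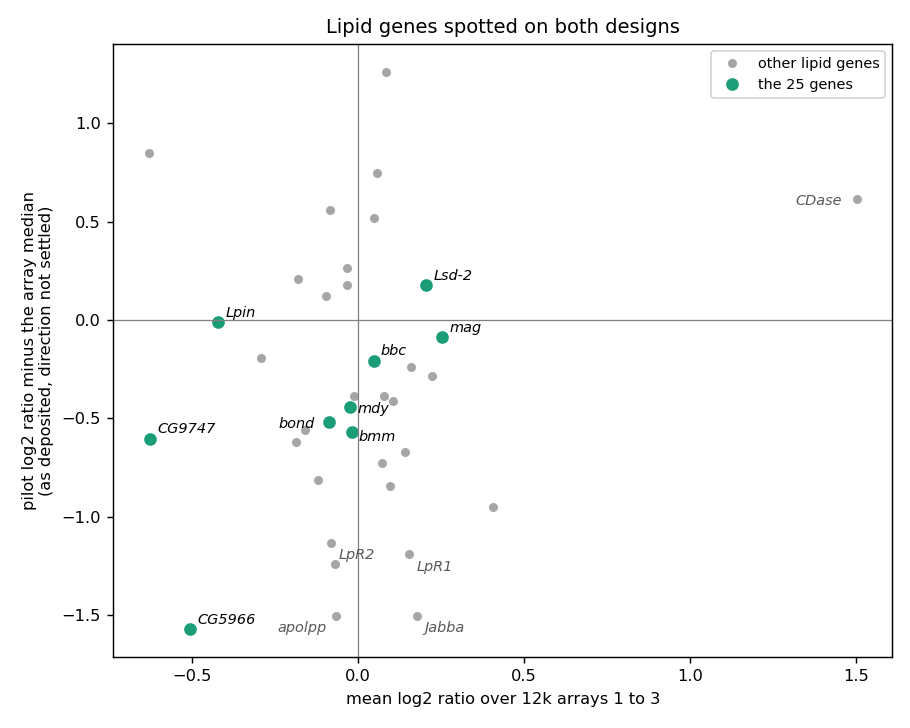
Mean log2 ratio over 12k arrays 1 to 3 (horizontal axis) against the pilot's log2 ratio minus its array median (vertical axis, as deposited, direction not settled) for the lipid genes spotted on both designs, with 9 of the 25 genes in green. CG5966 lies lowest on the pilot at −1.57 and CG9747 lowest of the green points on the 12k arrays at −0.63.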

How the data were processed

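The labels describe direct 2-colour cDNA comparisons, with TRIzol RNA labelled directly. The deposited values are 1 log ratio per spot, taken as log2, which the authors derived from normalized data, per the labels' descriptions. For background correction, normalization method and log base, details were not given in the sources used here. Spots were named through the platform annotation, updated by gene identifier to RefSeq symbols. No genome build is named for the arrays, so no coordinates are given.

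Of 27648 spots on the 12k design, 15116 carried 1 symbol. Spots of a gene were averaged within an array and other spots kept single, giving 19325 features. For each feature limma 3.58.1 (lmFit, then eBayes; R 4.3.3) gave a two-sided test of a mean of 0, and p-values were adjusted by Benjamini and Hochberg over all features (threshold 0.05). On simulated data the fit recovered mainly changes far larger than any mean among the 25 genes. Channel intensities were not used here, so the number of arrays limits the precision and spots were not compared with background. The named genes are all measured genes of the set, and in each role of the wider lipid list the 2 with the smallest p and any with an unadjusted p under 0.05. Members and lists were chosen with earlier results of these data known. Alternatives were array centring, local medians, other averaging of spots, robust and weighted fits, named genes only and leaving out each array.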

Additional observations from a re-analysis of the deposited data

How the results depend on the processing

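The count of genes past the test was 0 for the 25 lipid genes and for all features under each alternative run. The 924 features under an unadjusted p of 0.05 became 597 to 1208 without one replicate. Of the 6793 named genes, 237 were under it in the main fit and 387 when the named genes were fitted alone. Of the 25 genes, 1 was under it; this became 0 with arrays centred on their medians, 2 for named genes only (CG9747 and CG5966), and 0 to 1 without one replicate. The count of genes below 0 on all arrays, 5 in the main fit, was 3 with local medians over 101 or 11 spots. With 101 spots they were CG9747, bond and Lip3, and Lip3 was not among the first 5. Without one replicate the count was 7 to 10, when only 2 arrays had to hold. The count above 0, also 5, was 4 with 101-spot medians, 6 with 11-spot medians, 4 with symbols only and 5 to 9 without one replicate. With 101 spots the genes above 0 were Pss, Lsd-2, mag and Pect, and Pect was not among the first 5. The median over the 25 genes ran from −0.0425 with array weights to 0.0376 with 11-spot medians. Mean signs changed for 11 of 25 genes without some array, for 4 with 101-spot medians and for 7 with 11-spot medians. The share of all features whose mean changed sign is not given, so these counts are not shown to be particular to the 25 genes. The 11-spot window and matching by symbol only (23 genes) were chosen after seeing the data. With every spot its own feature, the gene counts have no value. The main test already uses the pairing, because every 12k value is itself the ratio of 1 pair, so no separate paired analysis was run. The pilot is 1 array and was not tested.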

Other observations

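The pilot array also carried 39 other lipid genes, 24 of them below its median, with a median of −0.24. The genes given here were named after their values were seen. Relative to the array's median, the droplet protein gene Jabba stood at −1.50, apolpp, which encodes the main lipoprotein of the blood, at −1.50, and CG6178 at −1.24. Both lipophorin receptor genes, LpR1 and LpR2, stood at −1.19 and −1.13. At the other end were the lipase gene CG6675 at 1.26 and the elongase gene CG31522 at 1.10. The direction of the pilot is not settled and there was 1 array. On the 12k arrays the means of Jabba, apolpp, CG6178, LpR1 and LpR2 were 0.18, −0.067, −0.069, 0.15 and −0.079, and that of CG6675 was 0.084.

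The range between spots of a gene, averaged over arrays, had a median of 0.369 over the 25 genes and 0.443 over all named genes. The range exceeded 1 on at least 1 array for 6 of the 25: CG5966, CG8630, Desat1, Lip1, Lsd-1 and mdy. Of the 25 genes 21 have 2 spots, whereas Desat1, Lip1, Lsd-1 and mdy have 6, 4, 8 and 4. A range can only widen with more spots. The share of named genes past that limit is not given.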
